A study of Mus musculus with 4 samples.

Results

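The 10 genes described here, Piwil1, Piwil2, Piwil4, Mael, Tdrd1, Tdrd9, Asz1, Mov10l1, Pld6 and Ddx4, belong to the piRNA pathway and were taken by name. A promoter was measured at 9 of them, out of 23209 genes in all, and a gene body at 9, out of 15776. Their DNA methylation was read from a whole-genome bisulfite table of male germ cells from mice aged 21 days. The 2 control samples carried floxed Np95 alleles and no recombinase (Np95fl/fl), and the 2 knockout samples carried the same floxed alleles together with Stra8-Cre (Np95fl/fl:Stra8-Cre), so both groups share the floxed gene and differ in the transgene. Stra8-Cre is driven by the promoter of Stra8, which is active in premeiotic male germ cells. Cells in whose lineage that promoter was never active keep the floxed gene. Np95, also called Uhrf1, recruits Dnmt1, the enzyme that copies methylation onto the new strand, after replication. Germ cells were freed from hand-picked seminiferous tubules and filtered. The labels do not state that replicates are separate mice, so p-values measure only how far these samples vary, which can include technical variation alone.

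piRNAs are small RNAs that guide PIWI proteins to transposon transcripts in germ cells. In fetal male germ cells the nuclear PIWI protein Piwil4 directs new DNA methylation to transposon copies, while Piwil2 and later Piwil1 cleave target RNA in cytoplasmic germ granules. Many genes of the pathway start in a CpG-rich promoter that is unmethylated in germ cells and methylated in somatic tissue.

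Each gene was taken with 5 kb on either side. A strand and a start in the build of the table (mm10) were given for 9 of the 10 genes. Piwil2 has none in the sequence table, so no promoter is reported for it. Promoters run from 1000 bp upstream to 500 bp downstream of the start by strand, and gene bodies leave out the first and last 2000 bp of the gene. Pld6, a gene of 3765 bp, has no body left after this trimming. Across the 300 bases around the start (250 upstream, 50 downstream) the members hold 10 to 38 CpGs, against a median of 7 over all promoters. The sequences of 6 promoters are shown because they carry both ends of the range described here. Mael, Asz1, Mov10l1 and Tdrd9 had the largest positive differences, Piwil1 had the smallest, and Pld6 had the one negative difference. The sequences are from RefSeq (GRCm38.p6, the same build as mm10), on the strand of the gene, 5′ to 3′, with CpGs in capitals. The positions are chr1:166238695-166238994 (Mael, minus strand), chr6:18109012-18109311 (Asz1, minus), chr15:88982744-88983043 (Mov10l1, plus), chr12:111971309-111971608 (Tdrd9, plus), chr5:128735996-128736295 (Piwil1, plus) and chr11:59787608-59787907 (Pld6, minus).
Mael: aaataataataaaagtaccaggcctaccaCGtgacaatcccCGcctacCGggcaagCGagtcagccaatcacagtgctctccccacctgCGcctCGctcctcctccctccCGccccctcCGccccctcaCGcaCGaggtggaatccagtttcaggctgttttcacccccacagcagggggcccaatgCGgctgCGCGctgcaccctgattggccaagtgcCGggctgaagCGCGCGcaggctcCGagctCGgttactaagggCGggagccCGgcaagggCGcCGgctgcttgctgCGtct
Asz1: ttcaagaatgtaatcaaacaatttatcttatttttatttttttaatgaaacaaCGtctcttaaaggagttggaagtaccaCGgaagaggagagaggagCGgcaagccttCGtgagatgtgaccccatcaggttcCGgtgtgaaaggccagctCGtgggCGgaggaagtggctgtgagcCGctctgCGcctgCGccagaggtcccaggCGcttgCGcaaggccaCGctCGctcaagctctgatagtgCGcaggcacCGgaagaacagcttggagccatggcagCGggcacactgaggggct
Mov10l1: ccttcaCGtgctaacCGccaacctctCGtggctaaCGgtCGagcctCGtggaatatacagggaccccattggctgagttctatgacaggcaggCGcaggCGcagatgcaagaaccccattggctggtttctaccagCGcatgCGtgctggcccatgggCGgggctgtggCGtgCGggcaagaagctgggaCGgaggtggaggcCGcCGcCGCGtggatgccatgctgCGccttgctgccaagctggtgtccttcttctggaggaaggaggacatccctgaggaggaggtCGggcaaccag
Tdrd9: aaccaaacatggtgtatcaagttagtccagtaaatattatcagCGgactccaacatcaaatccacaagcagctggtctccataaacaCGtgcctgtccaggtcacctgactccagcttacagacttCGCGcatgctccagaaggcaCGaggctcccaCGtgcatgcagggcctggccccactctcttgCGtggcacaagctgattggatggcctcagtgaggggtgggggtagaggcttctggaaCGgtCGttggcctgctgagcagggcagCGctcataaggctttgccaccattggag
Piwil1: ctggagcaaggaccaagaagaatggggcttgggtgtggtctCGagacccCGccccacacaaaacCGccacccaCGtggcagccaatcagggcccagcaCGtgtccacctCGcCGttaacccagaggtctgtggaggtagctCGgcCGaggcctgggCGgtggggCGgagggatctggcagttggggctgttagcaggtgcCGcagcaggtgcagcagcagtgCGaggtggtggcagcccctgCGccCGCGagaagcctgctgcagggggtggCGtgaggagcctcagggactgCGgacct
Pld6: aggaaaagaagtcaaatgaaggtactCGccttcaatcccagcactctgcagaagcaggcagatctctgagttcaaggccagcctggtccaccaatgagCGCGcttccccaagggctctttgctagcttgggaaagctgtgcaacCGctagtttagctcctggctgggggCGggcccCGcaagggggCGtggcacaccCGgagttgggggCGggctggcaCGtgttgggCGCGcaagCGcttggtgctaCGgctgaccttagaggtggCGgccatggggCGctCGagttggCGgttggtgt

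The positions of the CpGs in these sequences matched the table: all were listed at 8 of the 9 starts, and 21 of 22 at Piwil4. Of all cytosines in the table, 28999710 to 29774194 per sample had a value, and 22421484 had one in all 4 samples. Over the latter the mean level was 69.1% and 72.9% in controls and 38.1% and 38.4% in knockouts. The title of the table names a minimum of 10 reads, and the number of reads behind each value is unknown. The table gives no measure of the Np95 deletion itself. Promoters of 10 other germline genes that are methylated in somatic tissue (among them Dazl, Sycp1 and Sycp3) averaged 7.39% and 5.99% in controls and 17.5% and 12.5% in knockouts, beside 8.31% and 8.08%, then 15.3% and 11.9%, at the 9 piRNA promoters. The difference was positive at all 10, and 3 passed the rule given next for promoters.

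The promoters of most piRNA genes had a higher mean in knockouts, while the gene bodies behind them lost much of their methylation. Of the 9 promoters, 8 had a positive difference, and at 6 both knockouts lay above both controls. The median promoter of the list went from 7.91% to 14.2%, with a median difference of 4.83 points. Over all 13344 promoters under 20% in controls, the median difference was -0.15 points, and both knockouts lay above both controls at 15.3% of them and at 8.8% of all promoters. A promoter was called when limma, fitted over all 23209 promoters, gave a Benjamini-Hochberg adjusted p under 0.05 and the difference was at least 10 percentage points. By this rule 2 of the 9, Mael and Asz1, were called higher and 0 lower, where 0.271% of all promoters were called higher and 40.2% lower, and 0.472% of promoters under 20% in controls were called higher. The band between 5% and 15% in controls, which holds every tested member but Mael, has 2211 promoters. In it 51 were called higher, and at 419 both knockouts lay above both controls. Without the 10-point minimum, 2.81% of all promoters, 4.89% of those under 20% and 264 of the 2211 in that band were higher. Of the 9 members 5 were higher (Mael, Asz1, Mov10l1, Tdrd9 and Piwil4). Each of these 5 missed the threshold when some one sample was left out, with a highest adjusted p of 0.131, 0.129, 0.0954, 0.202 and 0.164. These tests rest on a spread shared between promoters. With each promoter's own spread (a t test) 0 of the 9 were called, and 1 had an unadjusted p under 0.05. That 1 was Piwil4, whose adjusted p by this t test was 0.04996, but its 4.83 points were under the 10-point minimum. Of all promoters 0 were then called higher and 15 lower (10454 had an unadjusted p under 0.05).

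**Figure D1:**
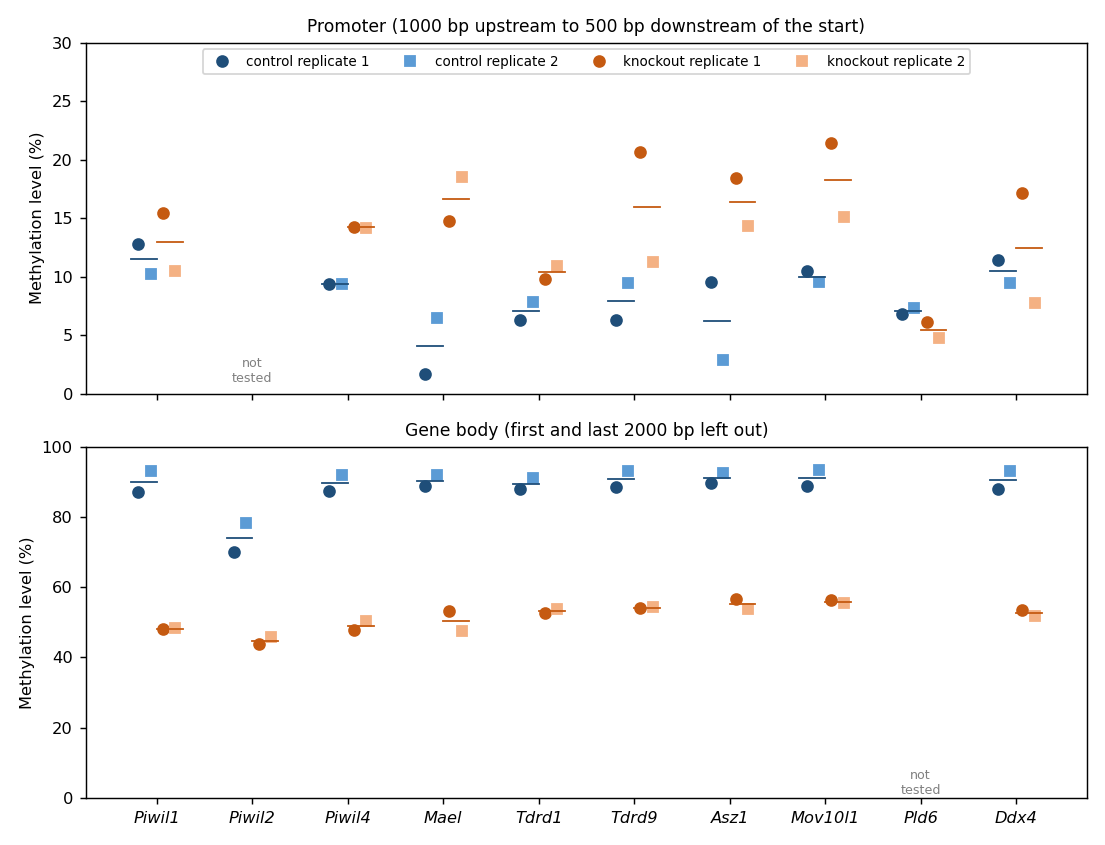
Methylation level in percent of the promoter (top, axis to 30%) and gene body (bottom, axis to 100%) of each gene in the 2 control and 2 knockout samples. Points are samples and horizontal lines are group means. Knockout points lie above control points at 6 promoters and, before any centring of samples, below them in all 9 gene bodies.

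Among the PIWI genes, Piwil4 had a higher promoter level in both knockouts, and Piwil1 did not differ beyond its spread. Piwil4, which encodes the nuclear PIWI protein (chromosome 9, 14701776 to 14740672, minus strand), had promoter levels of 9.41% and 9.38% in controls and 14.3% and 14.2% in knockouts, over 19 CpGs. The 2 averages within each group were close, but the difference of 4.83 points (limma adjusted p = 0.0326) was under the required 10. Single cytosines behind these averages varied more: 6 of 29 were higher in both knockouts and 3 were lower. With all cytosines of each sample the difference was 4.47 points (limma adjusted p = 0.0557), and with 2000 bp upstream it was -4.95 points. In the 300 bases around the start the groups overlapped (6.31% and 10.2% in controls, 16.5% and 9.98% in knockouts). Piwil4 also has an annotated start inside the gene, where the level was 86.7% and 94.9% in controls and 36.9% and 40.1% in knockouts, like a gene body. Piwil1, the PIWI protein of later spermatocytes and spermatids (chromosome 5, 128736071 to 128755474, plus strand), had 12.8% and 10.2% in controls and 15.4% and 10.5% in knockouts. The groups overlapped (difference 1.40 points, adjusted p = 0.663).

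Of the genes for piRNA production, Asz1 was called higher and Mov10l1, Ddx4 and Pld6 were not, and differences between these genes were not tested. Asz1, a scaffold protein on germ cell mitochondria (chromosome 6, 18050964 to 18109061, minus strand), went from 9.51% and 2.91% in controls to 18.4% and 14.3% in knockouts over 41 CpGs. Both knockouts lay above both controls, and the promoter was called (difference 10.2 points, 1.59 ± 0.50 SE on the log2 scale of the test, adjusted p = 0.0399). This call was lost without control replicate 2 (6.85 points, adjusted p = 0.0886) and without knockout replicate 1 (8.10 points, adjusted p = 0.129). Mov10l1, an RNA helicase that feeds precursor transcripts into the pathway (chromosome 15, 88982891 to 89055152, plus strand), went from 10.5% and 9.53% to 21.4% and 15.1% over 54 CpGs. Here too the groups did not overlap (8.26 points, adjusted p = 0.0061), but the value depended on the samples. Without knockout replicate 2 it was 11.4 points and called, without knockout replicate 1 it was 5.11 points, and without control replicate 1 or 2 the adjusted p was 0.052 or 0.0954. In the 300 bases around its start Mov10l1 rose from 8.35% and 7.19% to 26.3% and 19.5%. This shorter window was called (15.1 points, limma adjusted p = 0.0364). At Asz1 (11.4 points, adjusted p = 0.139) and Mael (13.8 points, adjusted p = 0.0769) the call was lost in the shorter window. Ddx4, the germ granule helicase also known as Vasa (chromosome 13, 112598333 to 112652633, minus strand), had 11.5% and 9.49% in controls. Its knockouts lay on either side of the controls, at 17.1% and 7.78% (difference 1.98 points, adjusted p = 0.719). Pld6, a mitochondrial nuclease that cuts piRNA precursors (chromosome 11, 59783893 to 59787657, minus strand), had the one promoter with a lower mean in knockouts, although the difference was 0.0578 points once samples were centred on their medians. It had 6.84% and 7.34% in controls and 6.12% and 4.81% in knockouts, a difference of -1.63 points (adjusted p = 0.205). In the 300 bases around its start the order was the opposite, at 1.25% and 1.51% in controls and 4.24% and 3.29% in knockouts (2.39 points, adjusted p = 0.163).

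Of the genes for Tudor proteins and the germ granule protein Mael, Mael had the largest difference among the members. Mael (chromosome 1, 166201385 to 166238744, minus strand) went from 1.70% and 6.48% in controls to 14.8% and 18.5% in knockouts over 56 CpGs. Controls averaged 4.09% ± 3.38 (SD, n = 2), and knockouts averaged 16.6% ± 2.64 (SD, n = 2), 12.6 points more (2.17 ± 0.51 SE on the log2 scale, adjusted p = 0.0145 by limma). Its groups were well separated, but the call was lost without knockout replicate 1 (14.4 points, adjusted p = 0.0638) and without knockout replicate 2 (10.7 points, adjusted p = 0.131). Tdrd9, a Tudor helicase that works with Piwil4 (chromosome 12, 111971488 to 112068854, plus strand), went from 6.32% and 9.49% to 20.7% and 11.3%. Its knockouts were far apart, and the difference was 8.07 points (adjusted p = 0.0145), but 12.8 points without knockout replicate 2, where it was called, and 3.38 without knockout replicate 1 (adjusted p = 0.0739). Tdrd1, a Tudor protein that binds Piwil2 (chromosome 19, 56826171 to 56870012, plus strand), had 6.29% and 7.82% in controls and 9.83% and 10.9% in knockouts. Both knockouts lay above both controls by a small margin (3.32 points, adjusted p = 0.0581).

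**Figure D2:**
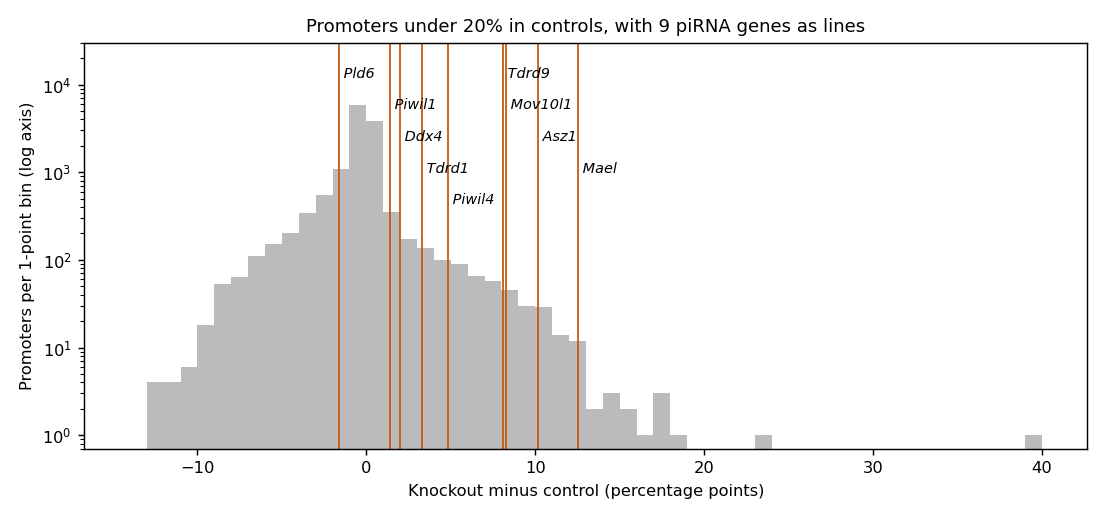
Knockout minus control difference, in percentage points, of the 13344 promoters under 20% in controls (grey bars, promoters per 1-point bin on a log axis). Orange lines mark the 9 piRNA genes, which run from -1.63 points at Pld6 to 12.6 points at Mael, where 18 promoters had a larger difference.

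The 2 knockout samples were not equally high. Replicate 1 lay above replicate 2 at 7 of the 9 promoters, all but Mael and Tdrd1, and at 7308 of the 13344 promoters under 20% in controls. The numbers of cytosines with a value in a member's promoter were alike in the 4 samples, for example 115, 111, 117 and 123 at Mael. Promoters of maternally methylated imprinted genes, which are unmethylated in male germ cells and methylated on 1 copy in somatic cells, were measured beside these. Of 13 on the list 11 were tested. Their mean level was 12.96% and 11.1% in controls and 12.8% and 10.2% in knockouts. Without Snrpn, whose annotated start holds 5 measured CpGs at 65.6% and 64.9% in controls, it was 7.69% and 5.75% in controls and 10.4% and 8.22% in knockouts, with a positive difference at 8 of 10 and 0 called. The promoters of Peg3 and Usp29, both among the 8, overlap and are not independent. No marker of this list was at 0 in any sample. Of promoters of Sertoli cell genes 3 of 7 on a list were tested, and of Leydig cell genes 4 of 6. All 7 tested had a negative difference, with 2 called lower. Of all 23209 promoters, 18241 had a negative difference and 9334 were called lower. The part of other cell types in the promoter differences was not tested. In bulk DNA, a small change in many cells and a large change in few cells cannot be told apart.

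Single cytosines showed how the change was spread over each promoter. Neighbouring cytosines share reads and are not independent. At Mael 64 of 99 measured cytosines were higher in both knockouts than in both controls (64.6%) and 1 was lower in both. Over all promoters under 20% in controls, 4.01% of cytosines were higher in this way and 4.51% lower. The counts were 36 of 77 at Asz1, 29 of 62 at Tdrd9, 33 of 90 at Mov10l1, 30 of 111 at Tdrd1, 38 of 149 at Ddx4, 19 of 82 at Piwil1 and 6 of 29 at Piwil4. At Pld6 it was 4 of 114, with 8 lower. Lower in both knockouts were 3 at Asz1, 3 at Tdrd9, 4 at Mov10l1, 9 at Tdrd1 and 12 at Ddx4 (8.05%). At Piwil1 7 were lower (8.54%), and at Piwil4 3 (10.3%). In all promoters under 20% in controls, 76.7% to 77.5% of cytosines were at 0 in each sample. That background is thus not matched to the members in level. The share of cytosines with a level of 0 in the Mael promoter was 79.8% and 34.3% in controls but 2.02% in each knockout. At Pld6 this share was 72.8% and 71.1% in controls and 71.9% and 67.5% in knockouts. The highest cytosine of the Mael promoter stood at 36.4% and 43.3% in knockouts and at 38.5% and 31.8% in controls, so no cytosine there was near full methylation.

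**Figure D3:**
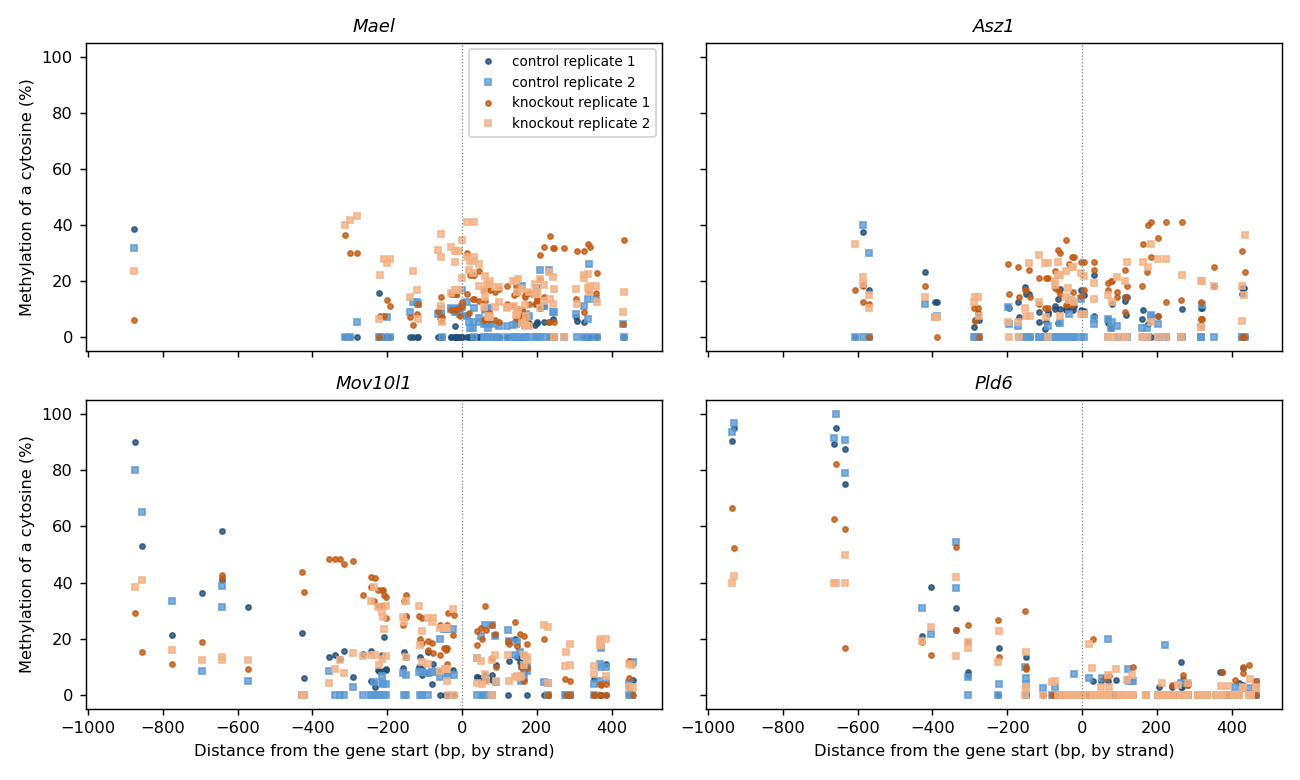
Methylation of each measured cytosine, in percent, against its distance from the gene start in bp (by strand) in the promoters of Mael, Asz1, Mov10l1 and Pld6. Points are cytosines in each of the 4 samples. Around the start most knockout points lie above most control points at Mael and Asz1. At Mov10l1 they do so mainly upstream of the start, and the samples overlap downstream of it. At Pld6 most points of all samples lie at 0.

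With distance from the start, the members' mean difference turned from positive to negative. In 250-bp bins averaged over the genes, the 250 bp upstream of the start had 6.20% and 5.51% in controls and 14.3% and 10.8% in knockouts, a difference of 6.73 points over 9 genes. The next bin, which begins 500 bp upstream, was 7.95 points higher in knockouts, over 8 genes. In the bin that begins 750 bp upstream the difference was -9.98 points, and in that which begins 1250 bp upstream it was -41.9 points, over 5 genes. On the downstream side, the first 250 bp were 6.07 points higher, and the bin from 1000 to 1249 bp was 32.6 points lower. In all promoters under 20% in controls, the same bins next to the start differed by 0.215 points upstream and 0.258 points downstream. A promoter window that reaches further out averages over both signs. With 2000 bp upstream, 0 of the 9 were called higher. Asz1 stayed at 8.88 points (limma adjusted p = 2.94e-06), and Mael was at 4.65 (adjusted p = 0.0139). Tdrd9 was at 2.83, Mov10l1 at 2.29 (adjusted p = 0.401) and Piwil4 at -4.95 points.

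**Figure D4:**
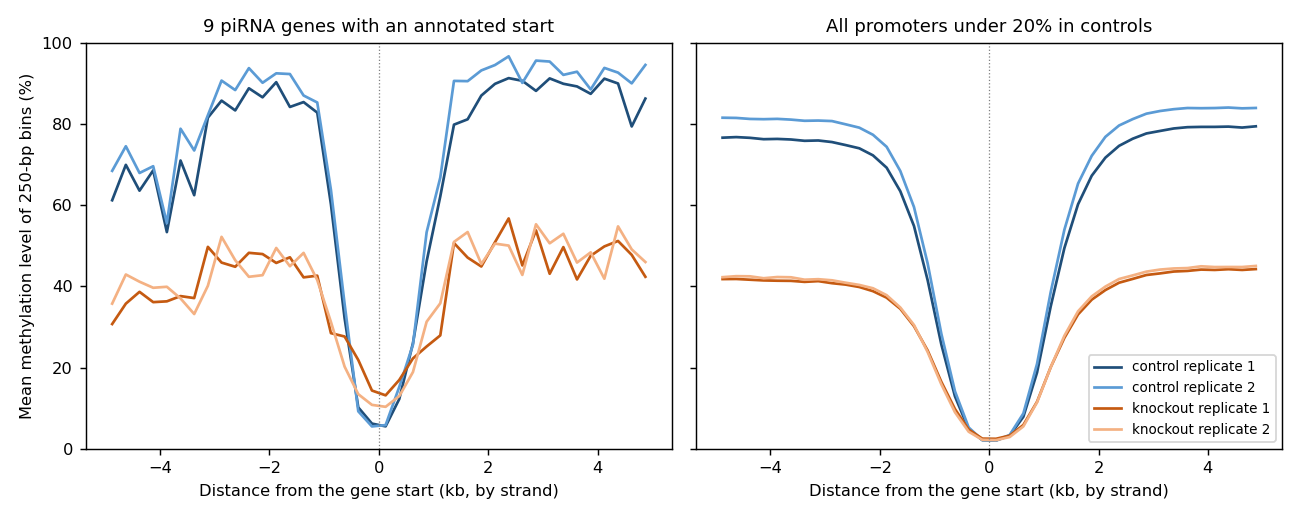
Mean methylation level of 250-bp bins, in percent, against distance from the gene start in kb (by strand) in each of the 4 samples, for the 9 piRNA genes with an annotated start (left) and all promoters under 20% in controls (right). Next to the start the knockout lines lie above the control lines in the left panel and on them in the right panel, and beyond 1 kb they lie far below in both.

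The 300 bases around the starts were searched on both strands for 3 motifs: the E-box CACGTG, the E2F site GGCGGGAA and the CCAAT box. No 2 matches overlapped. The E-box was present in 7 of the 9 members (Piwil1, Mael, Tdrd1, Tdrd9, Mov10l1, Pld6 and Ddx4), in 7.30% of all promoters of this length and in 10.1% of those under 20% in controls. The E2F site was present in Ddx4 alone, and in 2.29% of all promoters. The CCAAT box was present in 6 members and in 38.2% of all promoters. The E-box of Mov10l1, which begins 246 bases upstream of the start and is seen at the front of the sequence above, holds a CpG whose 2 cytosines averaged 10.2% and 0% in controls and 40.2% and 23.8% in knockouts. At the E-box of Mael, which begins 223 bases upstream, controls had 7.89% and 0% and knockouts 3.85% and 14.4%, which overlapped. At that of Pld6, the 1 cytosine measured was at 0 in all 4 samples. A match is a description of the letters only.

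Gene bodies of the piRNA genes lost methylation in both knockouts. In points, Piwil1 (-41.87), Piwil4 (-40.72), Mael (-39.93) and Ddx4 (-37.88) fell further than the median body of the genome (-37.77). The other members tested fell by less. On the log2 scale of the test most of the 9 fell further than the median body. All 9 bodies tested were called lower, where 96.9% of all 15776 bodies were. Apart from Piwil2, the bodies lay between 87.0% and 89.8% in control replicate 1, between 91.1% and 93.3% in control replicate 2, and between 47.5% and 56.6% in the knockouts. The groups did not overlap at any body. Piwil1 lost most (87.0% and 93.1% in controls, 48.0% and 48.4% in knockouts, fell by 41.9 points), and Mov10l1 lost least of these 8 (88.9% and 93.3%, then 56.3% and 55.5%, fell by 35.2 points). The largest adjusted p of the 9 by limma was 2.82e-11 (Tdrd1), a small value that comes from a spread shared across bodies. With each body's own spread (a t test) all 9 were still called, with adjusted p from 0.0179 (Mael) to 0.0302 (Piwil2).

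Since nearly every gene body fell, the share retained says more about differences among members. The median body of the genome fell by 37.8 points and retained 55.6% of the control level, and bodies over 85% in controls retained a median of 56.4%. The piRNA bodies retained a median of 59.5%, from 53.5% at Piwil1 to 61.4% at Mov10l1. Asz1 retained 60.6%, Piwil2 60.4%, Tdrd9 59.7%, Tdrd1 59.5%, Ddx4 58.1%, Mael 55.8% and Piwil4 54.7%. Of all bodies 92.9% retained less than Mov10l1 and 34.3% less than Piwil1. Centring samples on their medians moves the median difference of all bodies from -2.81 to 0.07 on the log2 scale and from -37.8 to 3.02 points. In points, 8 bodies then had a positive difference and Piwil1 a negative one (-1.08 points). Mael (0.862), Piwil4 (0.0730) and Ddx4 (2.91) were positive but under the median of 3.02. On the log2 scale Piwil1 (-3.22), Piwil4, Mael, Ddx4, Tdrd9, Asz1 and Mov10l1 (-2.92) lay below the median before centring. Centring shifts all bodies by the same amount on this scale. Of the members' bodies Piwil2 alone was called, as higher (11.4 points). It had the lowest control level of the members, 70.0% and 78.3%, with 43.7% and 45.8% in knockouts. The body of Pld6 could be measured only without trimming, where it held its promoter too (37.2% and 40.8% in controls, 20.04% and 22.6% in knockouts).

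The gap between promoter and body narrowed at each of the 8 genes where both were measured. A promoter at the low levels seen here in controls cannot fall by as many points as the bodies did, so a narrower gap follows from the starting levels once the body has fallen. The promoter level minus the body level was -87.0 and -85.4 points at Mael in controls and -38.5 and -29.0 points in knockouts, so the gap narrowed by 52.5 points. It narrowed by 46.1 points at Asz1, 45.5 at Piwil4, 44.6 at Tdrd9, 43.4 at Mov10l1, 43.3 at Piwil1, 39.9 at Ddx4 and 39.5 at Tdrd1. By limma all 8 were called, as were 81.2% of the 12016 genes with both regions, whose median gap narrowed by 36.2 points. Among the 9567 genes with a promoter under 20% in controls 97.0% were called, with a median of 37.3 points, so the count of 8 is near this background. Over all genes 9751 were called higher and 839 lower, but 1767 and 4185 with samples centred on their medians, where all 8 members were again called higher by 0.797 points (Tdrd1) to 13.7 points (Mael). The largest adjusted p among the 8 was 2.95e-24 (Asz1). This small p comes from a spread shared across genes. With each gene's own spread 5 were called, and Piwil1, Asz1 and Ddx4 were not (adjusted p = 0.0531, 0.0583 and 0.0656).

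The loci were then read in windows of 1 kb with at least 3 measured CpGs. Of 462 windows, 429 were called lower and 4 higher, where 93.4% of 1566473 windows were called lower and 0.137% higher. With samples centred on their medians 0 of the 462 were called lower and 49 higher. Over all 1566473 windows, 7700 were then called lower and 198926 higher. The median window went from 90.5% to 50.8%. All 4 gains lay in promoter windows: 2 at Mael, 1 at Asz1 and 1 at Mov10l1. The Mael window holding the start (chromosome 1, 166238001 to 166239000) went from 1.51% and 6.51% to 15.3% and 17.2% over 60 CpGs. The window upstream of it rested on 4 CpGs and went from 9.62% and 9.34% to 25.7% and 37.1%. When every cytosine measured in a sample was used, its difference was 9.05 points in place of 21.9 and the call was lost. The Asz1 window (chromosome 6, 18108001 to 18109000) went from 8.31% and 2.41% to 20.6% and 13.2%, and the Mov10l1 window (chromosome 15, 88982001 to 88983000) from 14.5% and 10.5% to 29.0% and 18.3%. Among the 69565 windows under 20% in controls, 3.05% were called higher, and these 4 were among 24 such windows in the loci. With each window's own spread 261 were called lower and 0 higher. The gains at Asz1 and Mov10l1 were lost without control replicate 2 (8.60 and 9.12 points) or knockout replicate 1 (7.85 and 5.77 points), and that of the Mael start without control replicate 1 (9.73 points).

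**Figure D5:**
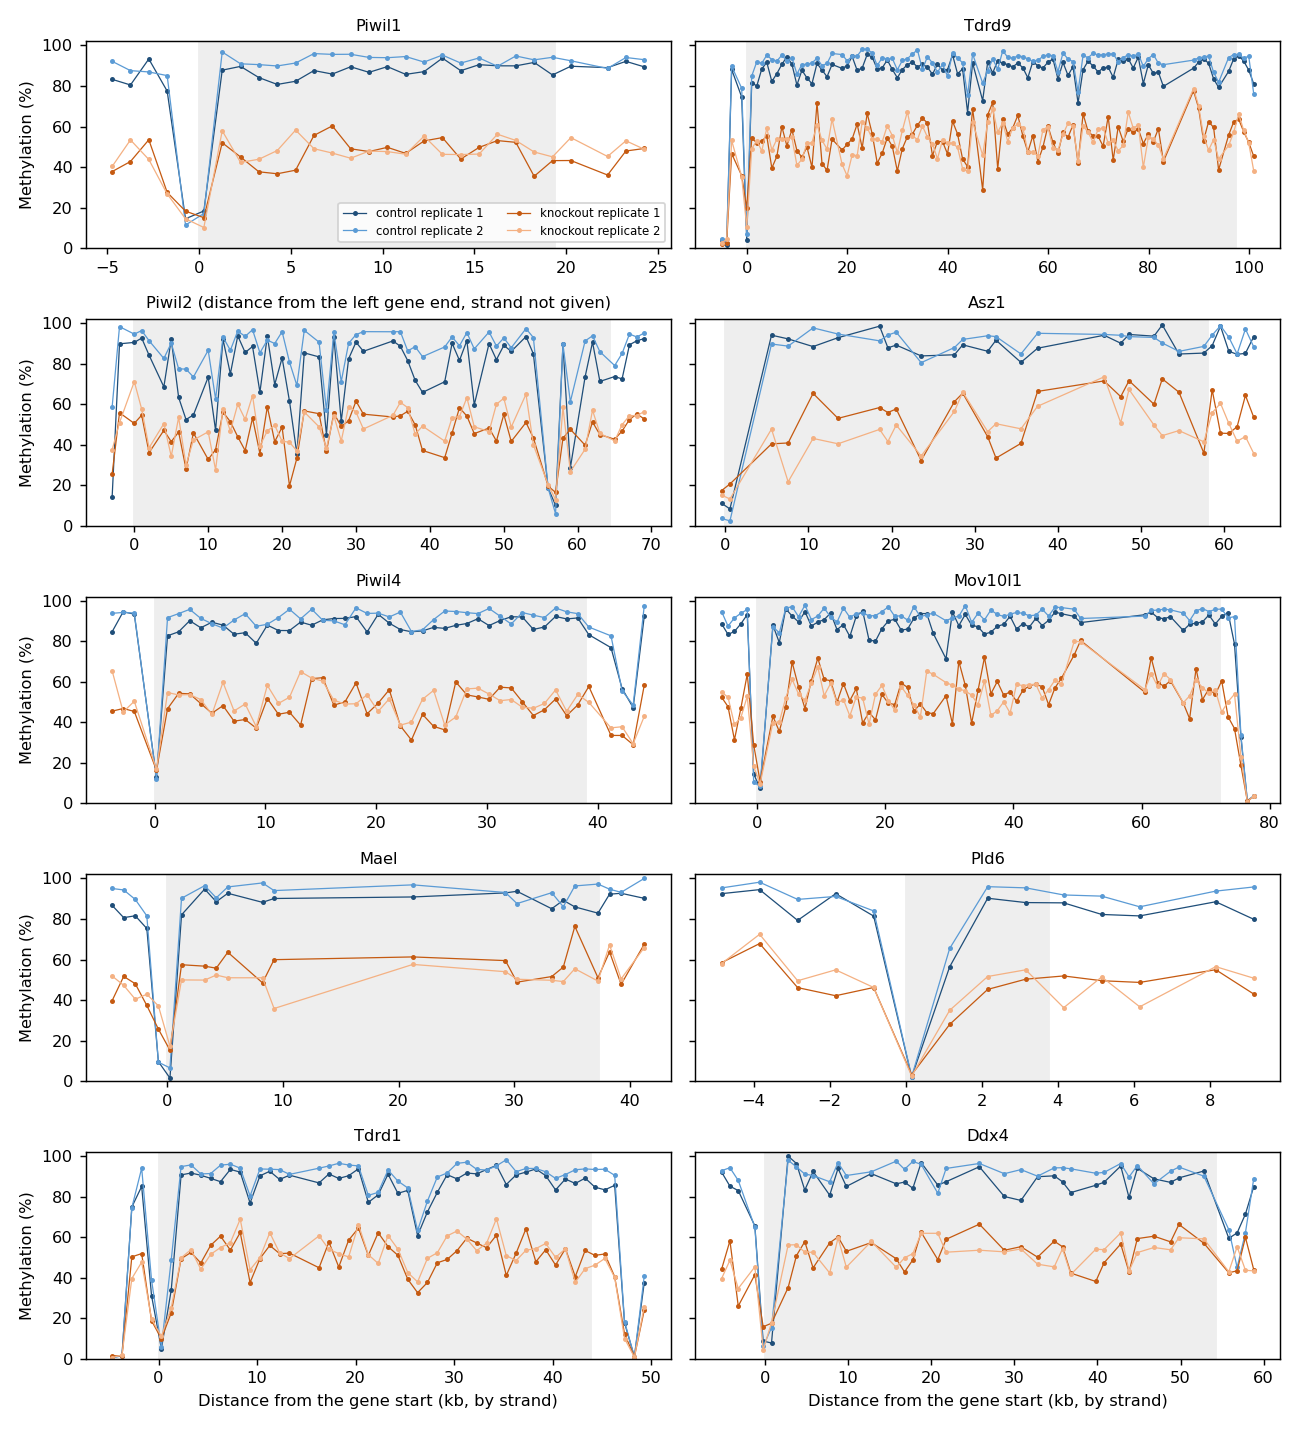
Methylation level in percent of 1-kb windows with at least 3 measured CpGs across each of the 10 loci, against distance from the gene start in kb (for Piwil2, from the left gene end), in the 4 samples. Grey bands have the length of the gene. Control lines run near 90% with a dip at the start, and knockout lines run near 50% and meet or pass the control lines mainly in the dips.

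Piwil2, without a strand in the reference used, showed its own dip in these windows. Its 2 windows under 20% in controls lay inside the annotated gene, 7898 and 6898 bp from its right end (chromosome 14, 70428001 to 70430000). The first of them was at 18.5% in both controls and 19.5% and 20.3% in knockouts. The second was at 10.2% and 5.94% in controls and 16.5% and 12.8% in knockouts, 6.60 points higher and under the required 10. Both knockouts lay above both controls in both windows.

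The loci also held windows with low methylation outside the members' promoters. Of the 24 windows under 20% in controls, 8 lay in the flanks. At Ccdc186, beside Tdrd1, 2 windows had 0.73% and 0.62%, and 1.45% and 1.38%, in controls and 1.57% and 0.60%, and 1.32% and 1.87%, in knockouts. At Vwa2, on the other side of Tdrd1, a window had 0.97% and 0.92% in controls and 1.01% and 0.83% in knockouts, and the window before it had 17.7% and 18.4%, then 12.3% and 9.9998% (adjusted p = 0.0387). Beside Tdrd9, a window had 4.12% and 4.51% in controls and 1.87% and 2.38% in knockouts (adjusted p = 0.00911), and the next had 1.46% and 2.70%, then 2.75% and 4.45% (adjusted p = 0.0593). These flank windows thus included lower, higher and overlapping levels. Inside Panx2, beside Mov10l1, a window had 1.13% and 1.44% in controls and 1.21% and 0.87% in knockouts. None of the 8 flank windows was called, since none differed by 10 points.

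The window with the largest loss in each locus, picked for that loss and given as a description, lay in the gene at 5 members and in the upstream flank at Ddx4, Mael, Mov10l1 and Piwil1. At Pld6 it lay mostly beyond the end of the gene. It was -59.1 points at Asz1 (chromosome 6, 18101001 to 18102000, over 3 CpGs), where the knockouts stood at 40.9% and 21.7%. At Ddx4 it was -55.1, at Piwil1 -54.2, at Piwil2 -53.2, at Piwil4 -53.1, at Mov10l1 -53.0, at Tdrd1 -50.7, at Tdrd9 -48.4, at Pld6 -45.8 and at Mael -45.1 points.

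Other genes of the pathway are given for comparison. Of 17 listed, 10 had a promoter that could be tested, 6 of them with a positive difference, with 0 called higher and 1 lower, and a median difference of 4.10 points. Tdrd7, a Tudor protein gene whose annotated start was methylated, fell by 29.9 points (53.7% and 57.5% in controls, 28.0% and 23.4% in knockouts; adjusted p = 5.54e-05 by limma). Fkbp6, a chaperone partner in piRNA production, went from 7.38% and 6.15% to 14.4% and 13.2%, and Gtsf1, a small zinc finger partner of PIWI proteins, from 11.4% and 6.81% to 16.1% and 14.8%. Both differences were under 10 points (7.07 and 6.39), with adjusted p of 0.00105 and 0.0137. Tdrd5, Exd1 and Tdrkh stayed at 2.10% or less in every sample. All 17 bodies were called lower, where 96.9% of all bodies were, and they retained a median of 57.3%, where all bodies retained 55.6%.

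The genes with the most similar promoter levels over the 4 samples were found by Euclidean distance, for the 4 members that moved by 5 points or more. For Mael they were 4933416E03Rik, Sycp3 and Aldoart2 (4.46, 4.52 and 5.29 points). For Asz1 they were Cryga, Fsip2 and Hsf5 (1.45, 1.86 and 2.03 points), for Tdrd9 Prss39, Gm30234 and Nobox (1.81, 2.07 and 2.11 points), and for Mov10l1 Apob, Gm26868 and Olfr605 (0.75, 1.89 and 1.996 points).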

How the data were processed

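Whole-genome bisulfite sequencing by post-bisulfite adaptor tagging was done on 2 control and 2 knockout samples, per the labels' protocols. The authors deposited 1 table of methylation in percent for each cytosine of a CpG, with no read counts, on mm10 per the submitters' processing notes. The table's title names a minimum of 10 reads. Aligner and methylation caller: not given in the sources used here. Depth per value is therefore unknown, and no interval from reads is given.

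Cytosines with a value in all 4 samples were averaged per region. Promoters needed 5 CpGs, bodies 10 and 1-kb windows 3. Starts and sequences came from RefSeq (GRCm38.p6). Regional means m, as fractions, were put on the scale log2((m + 0.01)/(1 - m + 0.01)) and tested with limma 3.58.1 in R 4.3.3 (trended, robust prior), with Benjamini-Hochberg adjustment over all regions of a kind. Calls needed an adjusted p under 0.05 and 10 points, or the adjusted p alone for promoter minus body. An exact permutation test of 2 against 2 cannot go below p = 0.333 and was not used. The fits were tested on simulated data. Listed X positions end at 60490732, and chromosome 18 was not used for promoters.

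The 10 members and all gene lists were chosen with earlier results of these data known. Among the other pathway genes, those with a called promoter and the 3 with the largest difference are named. Likeness was measured for members that moved by at least 5 points. Alternatives were each region's own spread, untransformed fractions, a replicate block, centring, other promoter, body and window limits, all cytosines of each sample, and leaving out each sample.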

Additional observations from a re-analysis of the deposited data

How the results depend on the processing

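The promoters of the 9 genes kept direction and call in 94 of the values from other settings, lost the call in 10, gained it in 6 and changed sign in 7. Members called higher numbered 0 with each region's own spread, 5 with no minimum difference, 0 with 2000 bp upstream, 1 with 250 bp upstream to 50 bp downstream, and 0 to 3 leaving out 1 sample. With 2000 bp upstream the difference was -0.175 points at Piwil1, -4.95 at Piwil4 and -1.65 at Tdrd1. At Pld6 it was 0.0578 after centring and 2.39 in the short window. Leaving out 1 sample gave -1.07 to 3.87 at Piwil1 and -2.69 to 6.65 at Ddx4. Centred on sample medians, 0 bodies were called lower and 1 higher, and the median of all bodies was 3.02 points. Piwil1 was at -1.08, Mael at 0.862, Asz1 at 4.80, Piwil4 at 0.0730 and Tdrd9 at 4.23 points. Ddx4 was at 2.91, Piwil2 at 11.4, Mov10l1 at 5.60 and Tdrd1 at 4.57 points.

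Windows called lower numbered 261 with own spread, 0 centred and 198 with at least 10 CpGs. Windows called higher numbered 0 with own spread, 49 centred, 8 with no minimum difference and 2 to 6 leaving out 1 sample. With all cytosines of each sample 3 were called higher. Promoter minus body was called at 5 genes with own spread. The causes were not tested.

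Over all regions, promoters called higher numbered 63, against 33 and 203 without knockout replicate 1 or 2, 121 centred, 652 with no minimum difference, 14 with 2000 bp upstream and 0 with own spread. Those called lower numbered 9334, against 15 with own spread and 2060 in the short window. Bodies called lower numbered 15289, against 14 centred, with 2735 then called higher in place of 2. Windows called lower numbered 1462376, against 859554 with own spread, 7700 centred and 420616 with at least 10 CpGs, and those called higher 2152, against 447, 198926 (centred), 5940 without knockout replicate 2 and 10042 with no minimum. Promoter minus body was called higher at 9751 genes, against 1767 centred, and lower at 839, against 364 with own spread, 4185 centred, 232 with the short promoter and 559 with bodies trimmed by 5000 bp.

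Same-numbered samples deviated together with r = 0.118 over promoters, 0.0871 over bodies and 0.0280 over windows, and the labels do not say that numbers pair samples. With the replicate number as a block (replicate block), 2 promoters and 4 windows of the members were called higher, 9 bodies and 431 windows lower, and 8 genes for promoter minus body. Read depths are unknown, so the precision of single cytosines is too.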

Other observations

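A few windows inside the genes kept most of their methylation, and they were picked out after their values were seen. In Mov10l1 the window at chromosome 15, 89033001 to 89034000, had 89.2% and 91.3% in controls and 80.4% and 79.8% in knockouts over 14 CpGs, and so retained 88.8%. Its neighbour on the left (89032001 to 89033000) retained 81.5%, with 73.3% and 80.01% in knockouts. In Tdrd9 the window at chromosome 12, 112060001 to 112061000, retained 86.1% over 5 CpGs, and that at 112020001 to 112021000 retained 78.2% over 41 CpGs. Of the 395 windows of the loci over 80% in controls, 8 retained 75% or more (2.03%), where 0.436% of 1235459 such windows in the genome did. Neither the first window of Mov10l1 nor the first of Tdrd9 was called lower.

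Start sites inside or beside the genes did not all look like the main ones. At a start of Tdrd1 inside the gene, the level was 90.7% and 92.0% in controls and 45.8% and 43.2% in knockouts over 12 CpGs. At the second start of Pld6, the level was 3.96% and 4.33% in controls and 4.30% and 3.47% in knockouts.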
